A study of Mus musculus with 6 samples.

Results

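The transcription factors and kinases described here belong to the response of neurons to axon injury. They are the transcription factors Atf3, Jun, Sox11, Myc, Klf4, Klf6, Klf7 and Klf9, and the kinases Map3k12 (DLK, dual leucine zipper kinase) and Map3k13 (LZK, leucine zipper kinase). The 10 genes were taken by name from a table of RNA-Seq read counts for 32371 genes, after Ensembl identifiers were matched to mouse gene symbols, and all 10 had a row and enough reads to be tested. The mice were adult C57BL/6J animals that received either AAV2-GFP, the control vector, or AAV2-Ezh2-Y726D by injection into the eye. Ezh2 is the methyltransferase that places the repressive histone mark H3K27me3, and Ezh2-Y726D is its catalytically dead form. In both groups an optic nerve crush (ONC) followed the injection by 2 weeks, and 3 days after the ONC retinal cells carrying the surface marker CD90.2 (the product of Thy1) were sorted, giving 3 libraries per group. No uncrushed retina was among these samples, so the levels are those of injured retinas in both groups. AAV2 also reaches retinal cells other than retinal ganglion cells (RGCs), and reads of the vector's Ezh2 and of the mouse's own Ezh2 were counted together. The labels do not say that the libraries came from separate mice, so the P values measure the spread between these libraries.

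When an axon is cut, DLK and LZK pass a signal through the kinases MKK4 and MKK7 to JNK, which phosphorylates the transcription factor Jun. Jun, Atf3, Sox11 and Klf6 are induced in injured neurons, and in RGCs the DLK and LZK pathway is known both for driving the death of injured cells and for being needed for axon regrowth. Krüppel-like factors (KLFs) bind GC-rich DNA and fall into members known to restrain neurite growth, such as Klf4 and Klf9, and members known to favor it, such as Klf6 and Klf7. Sox11 and Myc are known to promote axon regeneration when overexpressed in RGCs.

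The libraries differed in depth and in the share of counts assigned to CT010467.1, an rRNA gene. Total counts ranged from 9333244 to 23782520, and the rRNA gene took 50.9% and 52.2% of GFP replicates 2 and 3 but 2.55% to 16.1% of the other 4 libraries. Values are therefore given as CPM, counts divided by the TMM-scaled size of the library and multiplied by 1e6; TMM scaling sets the bulk of genes equal between libraries. Direction is always that of Ezh2-Y726D relative to GFP. Scaling by the library totals instead moved the median log2 fold change of all tested genes from 0.00 to 0.49. Ezh2 itself measured 22.7, 23.9 and 26.4 CPM after GFP and 65.2, 65.6 and 65.2 CPM after Ezh2-Y726D, a log2 fold change of 1.46 ± 0.061 (SE, edgeR adjusted P = 3.01e-16), as the labels say. All 12 RGC markers were detected, with a summed level of 515 to 531 CPM after GFP and 488 to 526 CPM after Ezh2-Y726D. Of these, Thy1 and Pou4f1 were higher (0.13 and 0.41, edgeR adjusted P = 0.0315 and 0.00151), Isl1 and Nrn1 were lower (-0.58 and -0.22, adjusted P = 1.45e-08 and 0.0257) and 8 did not pass the test. Markers of other cells were also present, and several moved with the group. The summed level of 10 amacrine cell markers was 1203 to 1344 CPM after GFP and 1923 to 1998 CPM after Ezh2-Y726D, and that of 10 markers of activated phagocytes was 393 to 433 CPM and 184 to 194 CPM. Of the cone markers 7 of 8 were lower (summed 421 to 443 CPM after GFP and 277 to 292 CPM after Ezh2-Y726D), of the bipolar cell markers 6 of 7 were lower and 1 was higher (1007 to 1025 and 829 to 853 CPM), and of the pericyte markers 5 of 6 were lower (217 to 234 and 170 to 183 CPM). Of 8 markers each, rods had 3 higher and 0 lower (5659 to 5828 and 6204 to 6404 CPM), Müller glia 1 higher and 4 lower (10146 to 10645 and 8985 to 9309 CPM), and homeostatic microglia 2 higher and 4 lower (586 to 651 and 412 to 483 CPM). In such sorted bulk samples, fewer cells of a type and less RNA per cell cannot be told apart.

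Of the 10 genes, 5 were higher after Ezh2-Y726D (Klf4, Jun, Map3k13, Map3k12 and Klf9), 3 were lower (Myc, Atf3 and Klf6), and Sox11 and Klf7 did not pass the test. A gene was called at an adjusted P under 0.05, where P came from the quasi-likelihood test of edgeR and was adjusted by Benjamini-Hochberg over 18138 genes. By this rule 27.5% of all tested genes were called, 13.9% higher and 13.6% lower. The changes were small for most of the 10. Only Myc, at a 1.83-fold lower level, and Klf4, at a 1.52-fold higher level, also passed a fold change of 1.5, a rule that 8.02% of all tested genes met. Log2 fold changes of the other called genes lay between -0.22 and 0.24, and the median of the 10 was 0.06, against 0.00 for all genes. The values of the GFP and the Ezh2-Y726D libraries did not overlap for 9 of the 10 genes, 5 higher and 4 lower, with Klf7 as the exception. Among all tested genes 38.6% had groups that did not overlap, 19.7% higher and 18.9% lower.

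**Figure D1:**
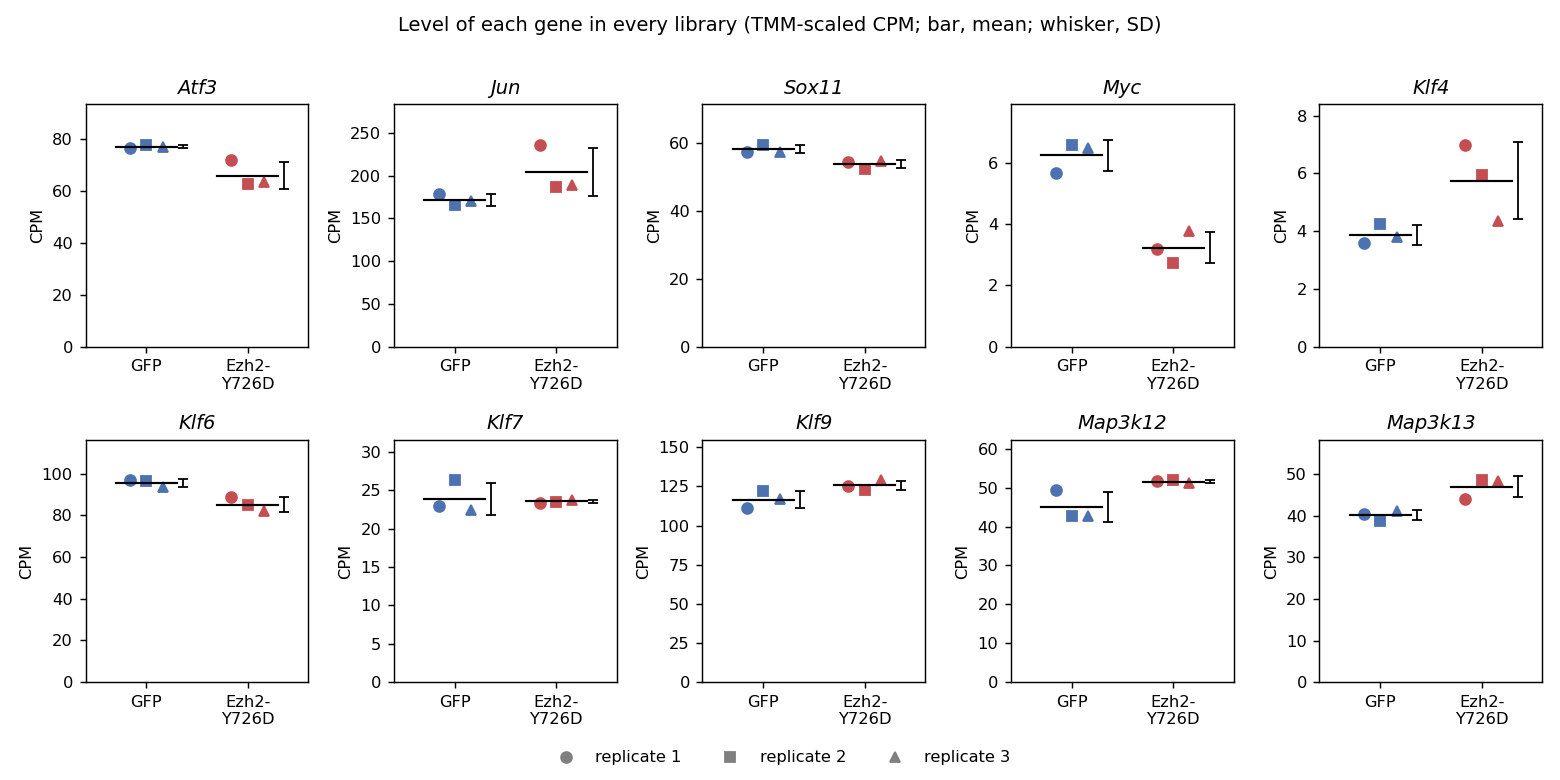
TMM-scaled CPM (vertical axes, from 0) of each of the 10 genes in the 3 GFP libraries (blue) and the 3 Ezh2-Y726D libraries (red), with symbols for the replicate, bars for the group mean and whiskers for 1 SD. Myc stands between 5.65 and 6.58 CPM after GFP and between 2.74 and 3.76 CPM after Ezh2-Y726D, and the groups of Klf7 overlap.

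How firmly these calls stood differed between genes. With any 1 of the 6 libraries left out, Myc, Atf3, Jun and Map3k13 were called in all 6 fits, Klf6 in 5, Klf4 in 4, and Klf9 and Map3k12 in 1. DESeq2 called Map3k13 alone among the 5 higher genes and all of the 3 lower ones. Under library totals none of the 10 was called, and Atf3, Klf6 and Sox11 took positive values of 0.28, 0.34 and 0.40, all below the shifted median of 0.49.

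**Figure D2:**
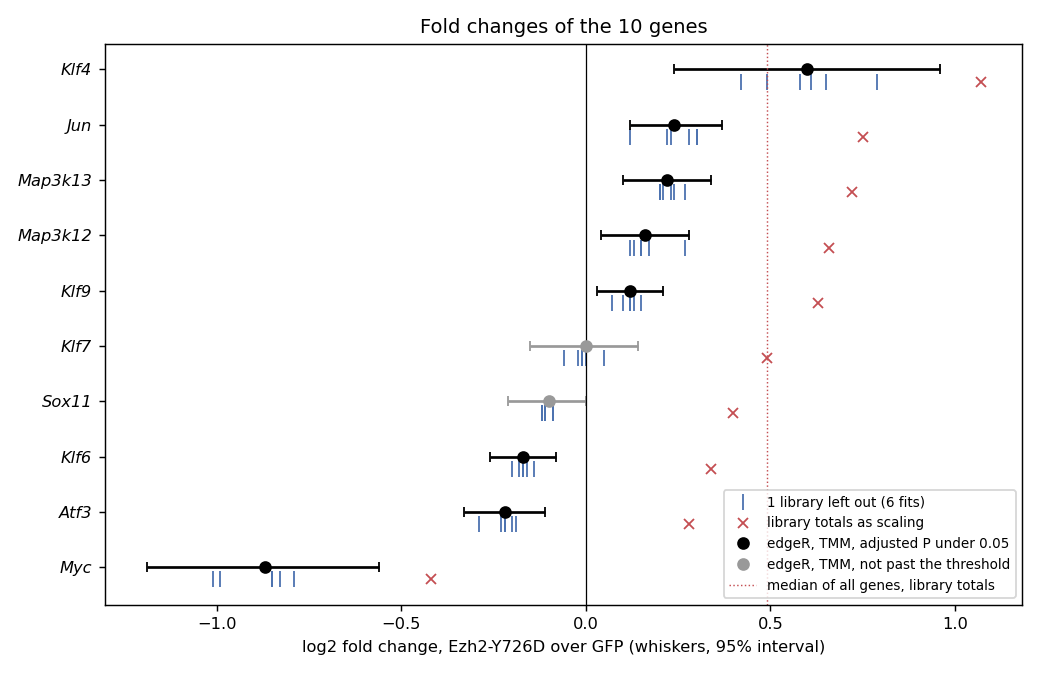
Log2 fold change of each gene, Ezh2-Y726D over GFP (horizontal axis), with its 95% interval from edgeR (whiskers), the 6 values with 1 library left out (blue ticks) and the value under library totals (red crosses, with the median of all genes at 0.49 as a dotted line). Myc lies at -0.87 and Klf4 at 0.60, and under library totals the crosses of all genes are shifted to the right.

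The genes covered a wide range of abundance. Per kilobase of exon, the levels after GFP ran in the order Jun (53.8 ± 2.14 CPM per kb, SD, n = 3), Atf3 (35.9 ± 0.288), Klf9 (24.3 ± 1.15), Klf6 (21.8 ± 0.427), Sox11 (7 ± 0.144), Map3k12 (5.01 ± 0.43), Map3k13 (4.6 ± 0.13), Klf7 (2.94 ± 0.262), Myc (2.29 ± 0.187) and Klf4 (1.27 ± 0.113). The ranges of neighboring genes in this order did not overlap across the 3 libraries, the closest being Map3k12 (4.76 to 5.51) and Map3k13 (4.46 to 4.7). Map3k12 shares 19.3% of its exonic bases with opposite-strand genes, whose reads may have been counted with it. The order of these kinases is therefore not firm. After Ezh2-Y726D the order was the same for the first 8 genes, while Klf4 (1.42 to 2.29 CPM per kb) now stood above Myc (1.01 to 1.38).

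The kinases at the head of the pathway were both slightly higher. Map3k12 measured 49.5, 42.8 and 42.8 CPM after GFP and 51.6, 51.9 and 51.2 CPM after Ezh2-Y726D. All Ezh2-Y726D libraries were above all GFP libraries, but GFP replicate 1 lay closer to them than to the rest of its own group. The log2 fold change was 0.16 ± 0.059 (95% interval 0.04 to 0.28, edgeR adjusted P = 0.0458). With GFP replicate 1 as the sole control library it was 0.06 (adjusted P = 0.583), DESeq2 gave an adjusted P of 0.109, and of the 6 fits with 1 library left out, where the log2 fold change ran from 0.12 to 0.27, only the fit without GFP replicate 1 called it (0.27, adjusted P = 0.00405). Map3k13 was at 40.5, 38.8 and 41 CPM after GFP and at 44, 48.5 and 48.3 CPM after Ezh2-Y726D, with the lowest Ezh2-Y726D library above the highest GFP library. Its log2 fold change of 0.22 ± 0.059 (0.10 to 0.34, edgeR adjusted P = 0.00473) stayed between 0.20 and 0.27 with 1 library left out. Within a library the ratio of Map3k12 to Map3k13 did not separate the groups, with a log2 ratio of 0.16 ± 0.11 after GFP and 0.14 ± 0.081 after Ezh2-Y726D (SD, n = 3; difference -0.03 ± 0.081, SE, exact two-sided permutation P = 0.7).

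The Map3k12 gene (ENSMUSG00000023050, chr15:102497646-102517064 on GRCm38) shares 19.3% of its exonic bases with genes on the opposite strand, mostly with Pcbp2, an abundant RNA-binding protein gene. Whether the counting used the strand of the reads is not given in the sources used here. Pcbp2 was at 69.6 ± 5.32 CPM after GFP and 68.4 ± 7.11 CPM after Ezh2-Y726D, with a log2 fold change of -0.00 (-0.13 to 0.13). Map3k13 (ENSMUSG00000033618, chr16:21794346-21933439) shares 3.22% of its exonic bases with other genes.

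DLK and LZK belong to the mixed lineage kinases, and of the 7 listed members 2 were higher, DLK and LZK themselves, and 2 were lower, where 13.9% of all tested genes were higher and 13.6% lower. Map3k11 (MLK3) was lower at -0.19 ± 0.063 (edgeR adjusted P = 0.0257), a call that was lost in 4 of the 6 fits with 1 library left out (those without GFP replicate 1 or 2 or Ezh2-Y726D replicate 1 or 2) and in DESeq2 (adjusted P = 0.161). Map3k20 (ZAK, a kinase that senses stalled ribosomes) was lower at -0.32 ± 0.089 (adjusted P = 0.00807), with an adjusted P of 0.0531 in DESeq2 and of 0.106 with GFP replicate 1 as the sole control library. Under library totals Map3k11 and Map3k20 were positive, at 0.32 and 0.17, below the shifted median. Map3k9, Map3k10 and Map3k21 (MLK1, MLK2 and MLK4) did not pass the test, with log2 fold changes of 0.17, 0.08 and 0.18. Map3k20 ran from 14.4 to 17.2 CPM after GFP and from 11.8 to 12.8 CPM after Ezh2-Y726D.

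Below and around DLK, 10 of 17 listed genes of the JNK pathway were higher after Ezh2-Y726D and 0 were lower, with a median log2 fold change of 0.14, beside 13.9% of all tested genes called higher and 13.6% lower. The count of lower genes was also 0 at an unadjusted P under 0.05 in edgeR, and 0 in DESeq2. The largest values were those of Mapk10 (JNK3, the JNK of neurons) and Mapk8ip2 (JIP2, a JNK scaffold). Mapk10 was at 75.6, 78.3 and 69.5 CPM after GFP and at 98.2, 98.4 and 98.9 CPM after Ezh2-Y726D, a log2 fold change of 0.40 ± 0.047 (edgeR adjusted P = 1.14e-07). Mapk8ip2 went from 106 ± 3.35 to 140 ± 3.94 CPM (0.39 ± 0.042, adjusted P = 3.31e-08). In both genes the groups were far apart relative to the spread within them. Mapk8ip3 (JIP3, which links JNK to axonal transport) was higher at 0.25 ± 0.042 (adjusted P = 2.72e-05), and so was Dusp1, a phosphatase that inactivates JNK, at 0.27 ± 0.086 (adjusted P = 0.0184). The value of Dusp1 was 0.11 (adjusted P = 0.231) without Ezh2-Y726D replicate 1, 0.20 (adjusted P = 0.169) without GFP replicate 1 and 0.24 (adjusted P = 0.0592) without GFP replicate 3, and DESeq2 gave an adjusted P of 0.364. Its groups overlapped, since GFP replicate 2, at 59.6 CPM, was above Ezh2-Y726D replicates 2 and 3, at 56.8 and 55.8 CPM. Mapk9 (JNK2), Mapk8ip1 (JIP1), Map2k4 (MKK4), the ubiquitin ligase genes Mycbp2 and Fbxo45, which limit DLK protein, and Usp9x, a deubiquitinase that stabilizes it, were higher at 0.13 to 0.25. Map2k7 (MKK7), Mapk8 (JNK1) and the scaffold gene Spag9 did not pass the test, at 0.09, 0.06 and 0.08. Nor did the other listed phosphatase genes, Dusp4, Dusp8, Dusp10 and Dusp16, at 0.12, -0.04, 0.08 and -0.04. The count of higher genes was 8 to 10 with 1 library left out, 8 by DESeq2 and 0 under library totals, where 46 of all tested genes were called higher. Beside these genes, 7 of 8 tested amacrine cell markers were also higher and 0 were lower, and 3 of 8 rod markers were higher and 0 lower, with the summed levels given above and no marker at 0 in all libraries. The part of these cells in the result was not tested.

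**Figure D3:**
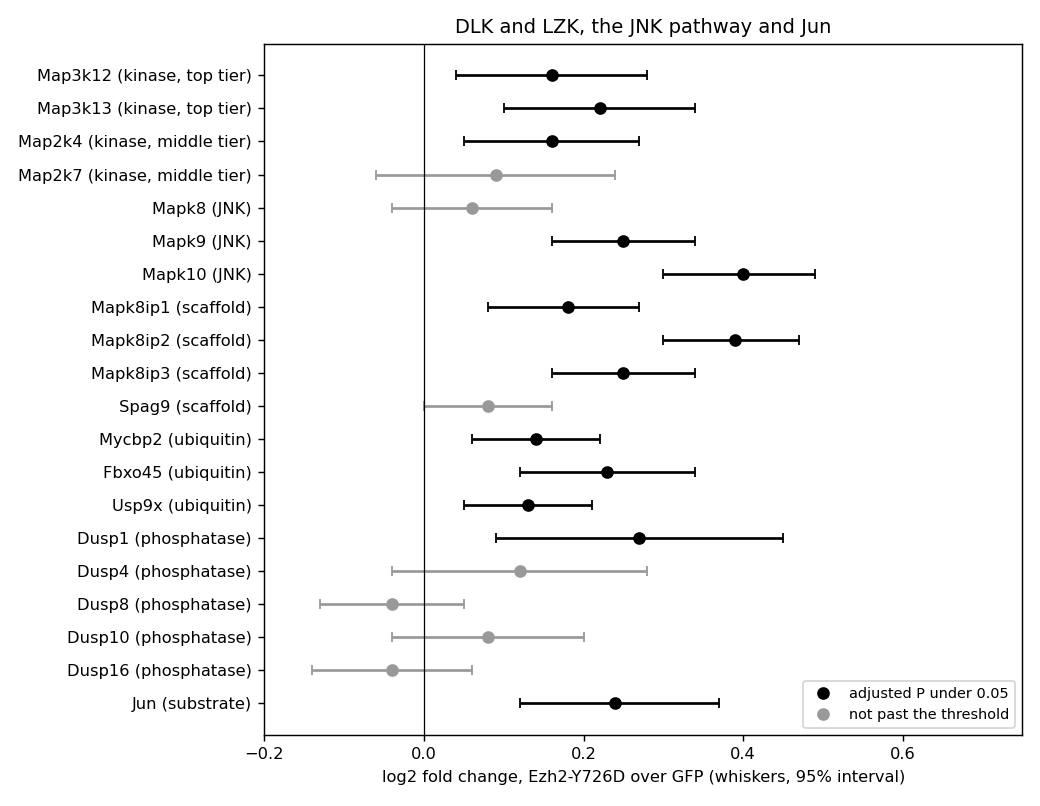
Log2 fold change, Ezh2-Y726D over GFP, with its 95% interval (whiskers), for Map3k12, Map3k13, the 17 listed genes of the JNK pathway and Jun, ordered by their place in the pathway. Filled black points passed an adjusted P of 0.05, and no gene lies below 0 by more than its interval.

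Jun was higher and Atf3 was lower after Ezh2-Y726D, although both code for basic leucine zipper (bZIP) factors of the same injury response and can dimerize. Jun was at 179, 166 and 170 CPM after GFP and at 236, 187 and 189 CPM after Ezh2-Y726D. All Ezh2-Y726D libraries were above the GFP libraries, and Ezh2-Y726D replicate 1 stood apart from the other two. The log2 fold change was 0.24 ± 0.06 (0.12 to 0.37, edgeR adjusted P = 0.00273). Without Ezh2-Y726D replicate 1 it was 0.12 (adjusted P = 0.0449), DESeq2 gave 0.25 with an adjusted P of 0.125, and with GFP replicate 1 as the sole control library it was 0.19 (adjusted P = 0.0785). Atf3 was at 76.7, 77.9 and 77.1 CPM after GFP and at 71.9, 62.6 and 63.6 CPM after Ezh2-Y726D, all below the GFP libraries. Its log2 fold change of -0.22 ± 0.053 (-0.33 to -0.11, edgeR adjusted P = 0.0018) stayed between -0.29 and -0.19 with 1 library left out and was positive, at 0.28, only under library totals. The ratio of Jun to Atf3 within a library does not depend on the scaling. Its log2 value was 1.22, 1.09 and 1.14 after GFP and 1.71, 1.58 and 1.57 after Ezh2-Y726D, a difference of 0.47 ± 0.062 (SE). Jun thus gained 1.39-fold on Atf3, with no overlap of the groups.

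Jun (ENSMUSG00000052684, chr4:95049034-95052222 on GRCm38) shares 7.28% of its exonic bases with the antisense gene Junos, which was at 1.77 ± 0.374 CPM after GFP and 1.7 ± 0.306 CPM after Ezh2-Y726D. Atf3 (ENSMUSG00000026628, chr1:191170296-191218039) shares none. The promoters of both genes are known to hold sites for bZIP dimers, so the 250 bases before each transcription start in RefSeq (GRCm38.p6) were searched on both strands. Entries were found for 9 of the 10 genes, with 10 windows in all because Map3k12 has 2, and for Myc none was in the table. The word TGACATCA (TGATGTCA on the other strand), known from Jun as a site of Jun and ATF dimers, was in 3 of the 10 windows, those of Jun, Klf6 and Sox11, and in 2.93% of the 32851 windows of all genes. The word TGACGTAA (TTACGTCA on the other strand) was in the window of Atf3 and in 0.447% of all windows. The 4 windows are printed because these words occur in genes that differed in direction, with the words in capitals and each window running 5′ to 3′ on the strand of its gene.

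Jun, chr4:95052223-95052472, minus strand: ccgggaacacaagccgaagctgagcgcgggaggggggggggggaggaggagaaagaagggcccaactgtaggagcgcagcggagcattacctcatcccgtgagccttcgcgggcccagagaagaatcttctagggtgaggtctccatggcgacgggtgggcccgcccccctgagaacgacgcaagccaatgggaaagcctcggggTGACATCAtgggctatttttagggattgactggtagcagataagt

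Atf3, chr1:191183334-191183583, minus strand: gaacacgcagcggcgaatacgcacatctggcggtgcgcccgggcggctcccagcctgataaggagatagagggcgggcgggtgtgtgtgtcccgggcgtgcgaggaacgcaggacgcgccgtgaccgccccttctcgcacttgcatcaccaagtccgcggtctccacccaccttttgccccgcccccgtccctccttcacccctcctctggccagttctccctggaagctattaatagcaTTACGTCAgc

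Klf6, chr13:5861239-5861488, plus strand: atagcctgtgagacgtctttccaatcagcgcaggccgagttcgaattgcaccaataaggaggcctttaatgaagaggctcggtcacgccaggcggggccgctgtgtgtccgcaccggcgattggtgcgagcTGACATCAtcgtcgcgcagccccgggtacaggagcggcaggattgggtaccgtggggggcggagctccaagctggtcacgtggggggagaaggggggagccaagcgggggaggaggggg

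Sox11, chr12:27342719-27342968, minus strand: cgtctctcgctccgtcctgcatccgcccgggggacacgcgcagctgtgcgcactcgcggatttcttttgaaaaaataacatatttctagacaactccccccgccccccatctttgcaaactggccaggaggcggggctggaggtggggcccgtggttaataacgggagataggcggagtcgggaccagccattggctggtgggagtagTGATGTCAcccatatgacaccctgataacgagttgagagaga

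The word lies 45 to 38 bases before the start in Jun, 119 to 112 in Klf6, 42 to 35 in Sox11 and 10 to 3 in Atf3. Some windows reach into exons annotated in GENCODE. These cover 7 bases each in Atf3 and Klf6, 102 in Klf7, 85 in Map3k13, 92 and 60 in the windows of Map3k12, and 0 in Jun, Sox11, Klf4 and Klf9. Of these genes Jun was higher, Atf3 and Klf6 were lower and Sox11 did not pass the test, so the windows with the words held genes of either direction. The palindromic CRE word TGACGTCA was in 0 of the 10 windows and in 1.55% of all windows. The AP-1 word TGACTCA, searched like the others on both strands, was in 0 of the 10 and in 4.46% of all. The E-box CACGTG, the word bound by Myc and Max, was in the windows of Klf4, Klf6 and Map3k12 and in 6.02% of all windows. The GC box GGGCGG was in 8 of the 10 windows and in 32.7% of all. The CACCC box CCACCC was in 3 (28.1% of all), the CCAAT box CCAAT in 4 (33.8%) and the TATA box TATAAA in 0 (12.4%). These matches are words in a window and say nothing of binding in these cells.

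Of the 23 listed bZIP genes, Jun and Atf3 included, 5 were higher and 6 were lower, with a median log2 fold change of -0.07, beside 13.9% higher and 13.6% lower among all tested genes. The higher ones were Fosb, Fos, Junb, Jun and Cebpd, of which Junb and Cebpd were named after their values were seen. Fos, the classical partner of Jun, was at 186, 189 and 183 CPM after GFP and at 309, 211 and 228 CPM after Ezh2-Y726D (0.42 ± 0.079, edgeR adjusted P = 0.00013). Fosb was at 28, 26.3 and 27.4 CPM after GFP and at 69.4, 31.8 and 33.2 CPM after Ezh2-Y726D (0.72 ± 0.18, adjusted P = 0.00339). Junb was at 129, 110 and 118 CPM and at 176, 130 and 138 CPM (0.30 ± 0.072, adjusted P = 0.00202). In each of these genes, as in Jun, Klf4 and Dusp1, Ezh2-Y726D replicate 1 was the highest of the 6 libraries. Without it the log2 fold changes were 0.24 for Fos (adjusted P = 0.000151), 0.25 for Fosb (adjusted P = 0.00597) and 0.16 for Junb (adjusted P = 0.027). These genes are known as immediate early genes, and what set that library apart was not tested. DESeq2 called none of the 3, with adjusted P values of 0.0681, 0.194 and 0.138. Cebpd (0.24 ± 0.049, adjusted P = 0.000283) kept a log2 fold change of 0.20 without it. Among the lower genes, Batf, a partner of Jun in lymphocytes, was at 4.14, 5.42 and 5.14 CPM after GFP and at 1.77, 2.11 and 2.27 CPM after Ezh2-Y726D (-1.17 ± 0.18, adjusted P = 9.26e-06). Atf1, a CREB relative, was lower at -0.30 ± 0.1 (adjusted P = 0.0292), a call lost in DESeq2 (adjusted P = 0.103) and without GFP replicate 2 or 3 or Ezh2-Y726D replicate 1 or 2, and its value was 0.17 under library totals. Besides Atf3, the other lower genes were Ddit3 (-0.26 ± 0.058, edgeR adjusted P = 0.00111), Cebpg (-0.15 ± 0.054, adjusted P = 0.0449) and Atf4 (-0.12 ± 0.041, adjusted P = 0.0248). These were named after their values were seen. All 8 T cell markers were lower along with Batf, with a summed level of 128 to 131 CPM after GFP and 73.6 to 80.9 CPM after Ezh2-Y726D, none of them at 0 in all libraries, and their part in the result was not tested.

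**Figure D4:**
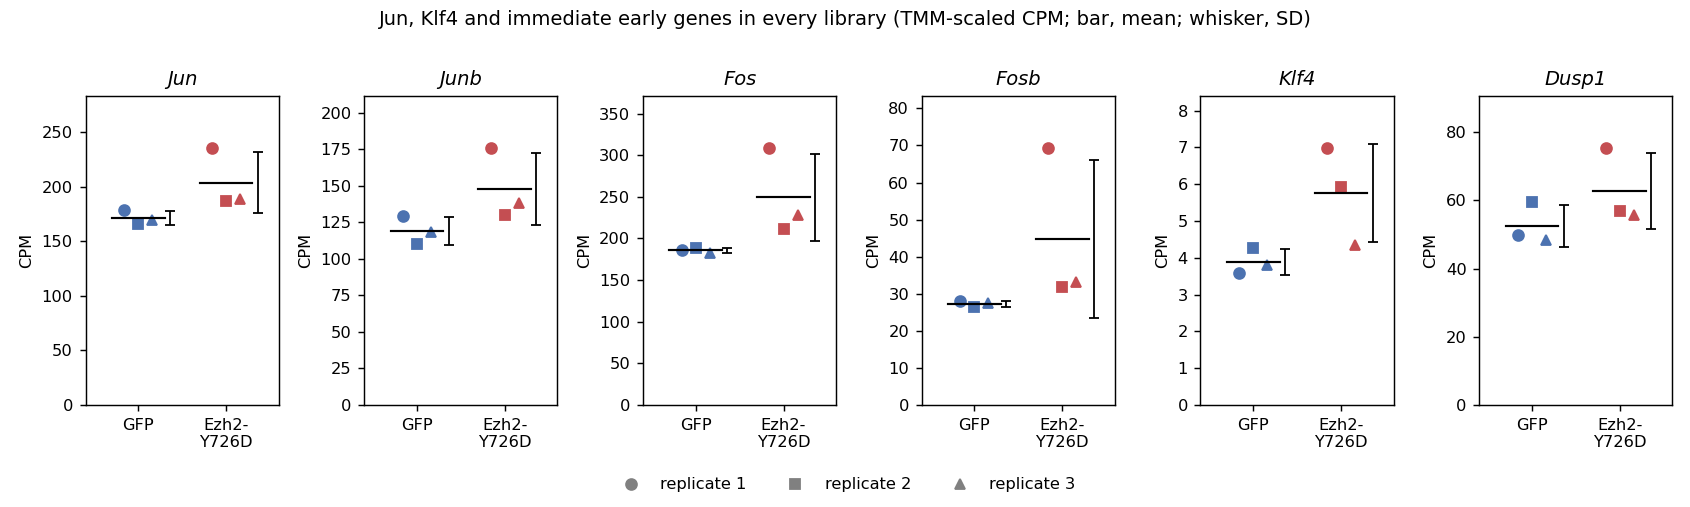
TMM-scaled CPM (vertical axes, from 0) of Jun, Junb, Fos, Fosb, Klf4 and Dusp1 in the 3 GFP libraries (blue) and the 3 Ezh2-Y726D libraries (red), with bars for the group mean and whiskers for 1 SD. Ezh2-Y726D replicate 1 (red circle) is the highest library in all 6 genes, and for Fosb it stands at 69.4 CPM against 31.8 and 33.2 CPM in the other two of its group.

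Myc, the transcription factor that drives growth and ribosome production, showed the largest fold change of the 10 genes. It was at 5.65, 6.58 and 6.47 CPM after GFP and at 3.19, 2.74 and 3.76 CPM after Ezh2-Y726D, from 161, 51 and 39 reads and from 85, 56 and 111 reads. The lowest GFP library was well above the highest Ezh2-Y726D library. The log2 fold change was -0.87 ± 0.15 (-1.19 to -0.56, edgeR adjusted P = 5.2e-05), and 4.07% of all tested genes had a larger absolute change. It stayed between -1.01 and -0.79 with 1 library left out and was negative under each scaling, at -0.42 under library totals, where it lost its call (adjusted P = 0.455). Myc (ENSMUSG00000022346, chr15:61985391-61990374 on GRCm38) shares no exonic base with another gene. The samples in which Myc was low were also those in which 8 of 10 markers of activated phagocytes (with 1, Lpl, higher and 1, Cst7, not called) and all 8 T cell markers were lower, cells that also express Myc when activated. None of the 10 phagocyte markers was at 0 in all libraries. The part of these cells in the level of Myc was not tested.

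Sox11, a SoxC factor of developing and injured neurons, was at 57.5, 59.6 and 57.6 CPM after GFP and at 54.4, 52.6 and 54.9 CPM after Ezh2-Y726D. The groups did not overlap, but the difference of -0.10 ± 0.051 on the log2 scale (-0.21 to 0.00) did not pass the test (edgeR adjusted P = 0.141), and no fit with 1 library left out called it. Under library totals it was 0.40. Its SoxC relatives Sox4 and Sox12 did not pass either, at 0.11 (adjusted P = 0.269) and 0.14 (adjusted P = 0.325). The log2 ratio of Sox11 to Myc went from 3.23 ± 0.11 to 4.07 ± 0.2 (SD, n = 3), a difference of 0.85 ± 0.13 (SE). Of the 15 listed SoxC genes and genes of the Myc and Max network, 1 was higher and 2 were lower, with a median of -0.01, beside the same 13.9% and 13.6% of all tested genes. Mxi1, a Max partner that opposes Myc, was higher at 0.14 ± 0.048 (adjusted P = 0.0337), but kept its call in only 1 of the 6 fits with 1 library left out, that without GFP replicate 2, and not in DESeq2 (adjusted P = 0.0953). The lower ones were Myc and Mxd3, another Max partner, which was named after its values were seen. Mxd3 was at 1.09 ± 0.0648 CPM after GFP and 0.302 ± 0.152 CPM after Ezh2-Y726D (-1.78 ± 0.38, edgeR adjusted P = 0.000566). It had few reads, 31, 8 and 7 after GFP and 5, 5 and 14 after Ezh2-Y726D. Mycn, the paralog of Myc, was at 9.84 ± 0.305 and 9.64 ± 0.454 CPM, with a log2 fold change of -0.03 ± 0.1.

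The KLFs did not move in 1 direction. Klf4 and Klf9, known to restrain neurite growth, were both higher, Klf6 was lower and Klf7 did not pass the test. Klf4 was at 3.58, 4.26 and 3.81 CPM after GFP and at 6.99, 5.93 and 4.34 CPM after Ezh2-Y726D, from 23 to 102 reads and 121 to 186 reads per library. The Ezh2-Y726D libraries were spread widely, and the lowest of them lay just above the highest GFP library. The log2 fold change was 0.60 ± 0.17 (0.24 to 0.96, edgeR adjusted P = 0.00918). It was 0.42 (adjusted P = 0.0823) without Ezh2-Y726D replicate 1 and 0.49 (adjusted P = 0.156) without GFP replicate 1, and DESeq2 gave 0.59 (adjusted P = 0.0685). Klf4 is also a gene of endothelial cells, whose 8 markers were at a summed 966 to 1029 CPM after GFP and 905 to 970 CPM after Ezh2-Y726D, 0 of them higher, 3 lower and none at 0 in all libraries. Most of this sum came from Kdr (763 CPM after GFP and 696 CPM after Ezh2-Y726D) and Flt1, while Cldn5, Pecam1, Cdh5, Tie1 and Emcn were at 1.84 to 8.24 CPM after GFP and 1.61 to 6.77 CPM after Ezh2-Y726D, and Esam was lower (13.4 and 7.59 CPM, edgeR adjusted P = 4.3e-07). Their part in the level of Klf4 was not tested.

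Klf9 was at 111, 122 and 117 CPM after GFP and at 125, 123 and 129 CPM after Ezh2-Y726D, groups that nearly touched. Its log2 fold change of 0.12 ± 0.044 (0.03 to 0.21, edgeR adjusted P = 0.0426) lost its call under RLE size factors (adjusted P = 0.0504), in DESeq2 (adjusted P = 0.0885) and in 5 of the 6 fits with 1 library left out, all but that without GFP replicate 2 (0.15, adjusted P = 0.0198). It was 0.07 without GFP replicate 1. Klf6 was at 96.8, 96.5 and 93.4 CPM after GFP and at 88.7, 84.8 and 82 CPM after Ezh2-Y726D, with every Ezh2-Y726D library below the GFP libraries. The log2 fold change was -0.17 ± 0.045 (-0.26 to -0.08, edgeR adjusted P = 0.00476), with an adjusted P of 0.0501 without Ezh2-Y726D replicate 3 and a value of 0.34 under library totals. Klf7 was at 22.9, 26.3 and 22.4 CPM after GFP and at 23.4, 23.5 and 23.7 CPM after Ezh2-Y726D. Its groups overlapped, and the interval of its log2 fold change, -0.15 to 0.14 (adjusted P = 0.974), leaves out changes of the size seen in Klf4. Klf7 (ENSMUSG00000025959, chr1:64029447-64122282 on GRCm38) shares 39.4% of its exonic bases with opposite-strand genes, chiefly Gm26649. No counts were found under the symbol Gm26649, so its level is not known here.

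The identifiers and positions of the other factors are ENSMUSG00000003032 and chr4:55527143-55532466 for Klf4, ENSMUSG00000000078 and chr13:5861482-5870394 for Klf6, ENSMUSG00000033863 and chr19:23141226-23168134 for Klf9, and ENSMUSG00000063632 and chr12:27334264-27342574 for Sox11. None of these 4 genes shares an exonic base with another annotated gene.

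Of the KLF family, 13 of the 16 genes in the table were tested, and 3 were higher, 3 were lower and 7 did not pass, with a median log2 fold change of -0.00, beside 13.9% higher and 13.6% lower among all tested genes. Klf12, a transcriptional repressor, was higher at 0.37 ± 0.071 (edgeR adjusted P = 0.000141), with 39.4, 52.6 and 40.1 CPM after GFP and 54.5, 57.6 and 55.5 CPM after Ezh2-Y726D. Klf10, a TGF-β-induced member, was lower at -0.28 ± 0.074 (adjusted P = 0.00388) and Klf13 at -0.15 ± 0.055 (adjusted P = 0.0408), and both were positive under library totals, at 0.22 and 0.35, below the shifted median. Of the 6 fits with 1 library left out, only that without Ezh2-Y726D replicate 1 kept the call of Klf13. Klf2, the endothelial relative of Klf4, was at -0.29 ± 0.16 (adjusted P = 0.194) and at -0.48 (adjusted P = 0.0249) without Ezh2-Y726D replicate 1. Klf3 stood at -0.13 ± 0.063 (adjusted P = 0.125) and at -0.21 (adjusted P = 0.0476) without GFP replicate 1. Klf8, Klf11, Klf15 and Klf16 had log2 fold changes of 0.13, 0.00, 0.08 and -0.10, and none was called with 1 library left out, where they ran from 0.02 to 0.72, -0.10 to 0.04, 0.02 to 0.25 and -0.15 to -0.02. The upper ends for Klf8 and Klf15 came from the fit without GFP replicate 1 and that for Klf16 from the fit without GFP replicate 2. Klf1, Klf5 and Klf14 had too few reads to be tested, at most 20 in any library.

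Ratios of paired KLF genes within a library do not depend on the scaling. The log2 ratio of Klf6 to Klf9 was -0.20, -0.34 and -0.32 after GFP and -0.50, -0.53 and -0.66 after Ezh2-Y726D, a difference of -0.27 ± 0.065 (SE). That of Klf7 to Klf4 was 2.68, 2.63 and 2.55 after GFP and 1.74, 1.99 and 2.45 after Ezh2-Y726D, a difference of -0.56 ± 0.21. In both pairs the Ezh2-Y726D libraries lay below the GFP libraries, and Klf7 itself did not pass the test. Of the 5 pairs compared, 4 had groups that did not overlap and an exact two-sided permutation P of 0.1, the smallest that 3 libraries against 3 allow, so none could pass a threshold of 0.05.

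**Figure D5:**
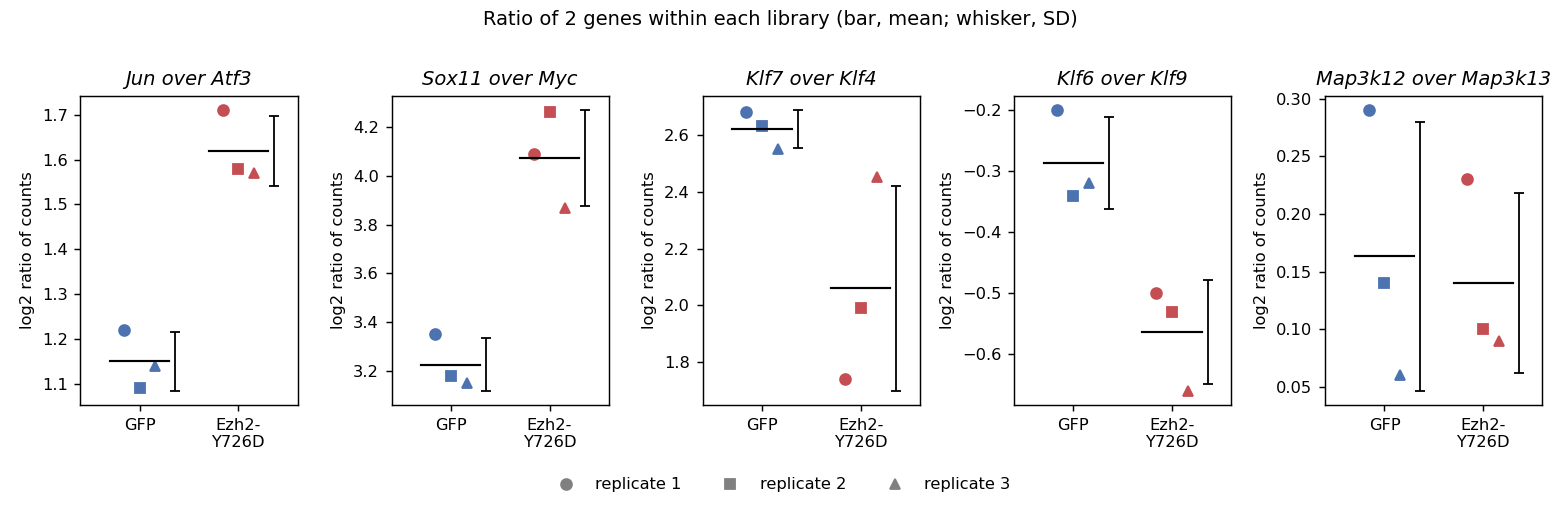
Log2 ratio of the counts of 2 genes within each library (vertical axes, not starting at 0) for 5 pairs, with GFP libraries in blue, Ezh2-Y726D libraries in red, bars for the group mean and whiskers for 1 SD. The groups are separate in the first 4 pairs and overlap for Map3k12 over Map3k13.

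Of 20 listed genes known to be induced in injured neurons downstream of these factors, 1 was higher, 4 were lower and 15 did not pass, with a median of -0.07, where 27.5% of all tested genes were called in either direction. Gal, which codes for the neuropeptide galanin, was higher, at 0.807, 1.16 and 1.33 CPM after GFP and 2.1, 1.72 and 1.73 CPM after Ezh2-Y726D (0.94 ± 0.27, edgeR adjusted P = 0.00978), a call lost without GFP replicate 1 (0.58, adjusted P = 0.299) and in DESeq2 (adjusted P = 0.135). Tubb6, a tubulin gene, was lower at -0.63 ± 0.096 (adjusted P = 8.16e-06), with 14.3, 16.9 and 15.1 CPM after GFP and 10.4, 8.77 and 10 CPM after Ezh2-Y726D. Ecel1, an endopeptidase induced by nerve injury, fell from 107 ± 4.63 to 81.5 ± 3.02 CPM (-0.40 ± 0.046, adjusted P = 6.65e-08), and Bcl2l11 (Bim, a Jun target that promotes apoptosis) from 31.1 ± 4.03 to 22.5 ± 2.7 CPM (-0.45 ± 0.081, adjusted P = 6.69e-05). The 4th was Gadd45b, a stress gene named after its values were seen, at -0.37 ± 0.1 (adjusted P = 0.00551). Under library totals Ecel1, Bcl2l11 and Gadd45b were at 0.10, 0.04 and 0.11, below the shifted median of 0.49. Most markers of cones, bipolar cells, pericytes and activated phagocytes and all of those of T cells were lower in the same libraries as these 4 targets, and their part was not tested.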

How the data were processed

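RNA was isolated from CD90.2-sorted retinal cells with the PicoPure kit and libraries were made with the TruSeq Stranded Total RNA kit. The authors deposited whole-number read counts per gene, without normalization. The submitters' processing notes name STAR 2.7.0d and GRCm38, and the counting tool, annotation and strand setting are not given in the sources used here. Symbols for 32325 of 32371 identifiers came from a gene name table, and positions and exonic overlaps for 32342 from GENCODE vM21. The 6 libraries were fitted together in edgeR 4.0.16 (R 4.3.3) with TMM factors of 0.647 to 1.31, filterByExpr (minimum count 10, minimum total 15), the quasi-likelihood test and Benjamini-Hochberg adjustment over 18138 genes (common biological coefficient of variation 0.0442). The CPM values are counts per 1e6 of the TMM-scaled total of tested genes, and SE is the log2 fold change over the square root of F. Libraries differed beyond sampling noise within groups (chi-square per degree of freedom 1.49 to 3.03). Each was counted as 1 replicate, although such a spread cannot show that libraries came from separate mice. The procedure was tested on simulated data.

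The genes and all gene and marker lists were chosen with earlier results of these data known, so their counts are descriptions. Named genes were the 10 genes, Ezh2, every tested KLF and mixed lineage kinase, and from each other list up to 4 called genes with the largest absolute log2 fold change and a mean of at least 1 CPM. Genes named beyond this rule (Junb, Cebpd, Ddit3, Cebpg, Atf4, Mxd3, Gadd45b, Sox4, Sox12, Mycn, the remaining JNK pathway genes and the marker genes named singly) were chosen after their values were seen. Alternatives were RLE size factors, library totals with and without the rRNA gene, DESeq2 1.42.0, no filter, at least 10 counts per library, a block for the replicate number, each library left out, a fold change threshold, a prior count of 2 for the ratios and, added after the data were seen, GFP replicate 1 as the sole control. The total counts of the libraries, 9333244 to 23782520, or 4460732 to 22024582 without the rRNA gene, limit the precision of genes with few reads, such as Myc and Klf4.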

Additional observations from a re-analysis of the deposited data

How the results depend on the processing

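The count of higher genes among the 10, 5 in the fit reported, was 4 with RLE size factors, 3 with library totals without the rRNA gene, 3 with GFP replicate 1 as the sole control library (chosen after seeing the data), 1 with DESeq2, 1 with a fold change over 1.5, 0 with library totals and 2 to 4 with 1 library left out. The count of lower genes, 3 in the fit reported, was 1 with a fold change over 1.5, 0 with library totals and 2 to 3 with 1 library left out. In the 85 tested list genes other than the 10, 17 were higher and 14 lower, beside 13.9% and 13.6% of all tested genes. These counts became 10 and 8 with DESeq2, which called 1792 genes higher and 1648 lower among all 17309 it tested. They were 0 and 0 with library totals. With 1 library left out the lower count was 9 to 15 and the higher count 14 to 17.

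With library totals, where 46 genes were higher and 19 lower among all genes, called values turned positive for Atf3 (0.28), Klf6 (0.34), Atf1 (0.17), Bcl2l11 (0.04), Ecel1 (0.10), Gadd45b (0.11), Klf10 (0.22), Klf13 (0.35), Map3k11 (0.32) and Map3k20 (0.17), and values that were not called did so for Sox11 (0.40), Klf2 (0.20), Klf3 (0.36) and Klf16 (0.40), all below the median of 0.49 that the scaling gives to all genes. Of 140 values of the 10 genes under alternatives, 110 stayed on the same side of the threshold, 28 lost the call and 2, those of Atf3 and Klf6 under library totals, lost it and changed sign. Among the 110 are Sox11 under library totals and the values of Klf7, which lay on either side of 0 (-0.06 to 0.49). Replicates 1 to 3 carry the same numbers in both groups. The correlations of same-numbered libraries' deviations were 0.136, 0.051 and 0.039, and those of differently numbered libraries ran from -0.079 to 0.026. Each library thus correlated most with the library of its own number, but weakly. These values do not settle whether the numbers pair the libraries, and the fit reported used no pairing. With the replicate number as a block, 2675 genes were higher and 2547 lower among all genes, against 2525 and 2463 without it. The counts for the 10 genes were 5 and 3 in both fits, and the block also called Klf3 (-0.16, edgeR adjusted P = 0.0316). At this depth Myc and Klf4, with as few as 39 and 23 reads in a library, are the least precise of the 10. The causes of these differences were not tested.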
